A study of Mus musculus with 14 samples.

Results

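The potassium channel genes are the 82 of the 16703 measured genes whose mouse symbol begins with Kcn and another letter, with Kcnj10 and symbols ending in os left out. They comprise 80 protein-coding genes and 2 noncoding antisense RNAs, Kcnq1ot1 and Kcnmb4os2, which the spelling of the symbols keeps in. The rule reads the symbol and no measured value. RNA of the whole spinal cord was sequenced from wild type C57Bl/6 mice with experimental autoimmune encephalomyelitis (EAE), a disease in which immunization with a peptide of myelin oligodendrocyte glycoprotein (MOG35-55) in complete Freund's adjuvant leads immune cells to attack myelin. All animals were gonadectomized, that is, ovariectomized females and castrated males, so no group had intact gonads and none was free of EAE. Their stated age of 9 to 10 weeks is, in the paper's Methods, that at the start of acclimatization, before EAE was induced. From disease onset they received intranasally either dihydrotestosterone (DHT), an androgen that aromatase cannot turn into estradiol, at 0.04 mg per day, or vehicle, for 8 days. The table holds 4 vehicle and 3 DHT libraries of females and 4 vehicle and 3 DHT libraries of males. Female and male mice were run as separate datasets, so sex and dataset cannot be told apart, and "cohort" is used here for both together.

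Potassium channels are membrane pores that let potassium leave the cell and so repolarize it after an action potential and hold the resting potential. Voltage-gated (Kv) channels open on depolarization, calcium-activated channels follow intracellular calcium, inwardly rectifying (Kir) channels and two-pore-domain (K2P) channels set the resting potential, and accessory subunits change gating and surface delivery without forming a pore. In myelinated axons Kv1 channels sit beside the node of Ranvier under the myelin and Kv7 channels at the node itself, while T cells and microglia use a small set of other potassium channels that drive calcium entry and activation.

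The sequence element that the pore-forming members share is the selectivity filter, the loop that strips water from potassium and whose letters are nearly invariant. Reading the longest open reading frame of each protein-coding member in the transcripts of GENCODE M21 found the codons of a threonine or serine, any residue, glycine, tyrosine or phenylalanine, and glycine in 67 of 67 pore-forming members and in 0 of 13 accessory subunits of the Kcnab, Kcne, Kcnip, Kcnmb and Kcnrg families. A first search with threonine alone was widened to serine after its result was seen. The filter was found at 2 places in 8 genes, all of the Kcnk family, which carries a pair of pore loops per subunit. The remaining Kcnk members, Kcnk1 and Kcnk6, gave 1 match each in both searches, so the pattern did not find their second filter. The coding stretches below, each with the 15 filter bases in capitals, are shown because these genes rose (Kcna1, Kcna2, Kcnma1) or fell (Kcna3, Kcnn4, Kcnk6) in DHT-treated females while sharing this element.
Kcna1: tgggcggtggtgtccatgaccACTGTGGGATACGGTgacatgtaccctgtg
Kcna2: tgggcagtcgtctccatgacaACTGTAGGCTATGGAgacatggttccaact
Kcnma1: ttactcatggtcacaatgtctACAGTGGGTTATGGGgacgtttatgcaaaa
Kcna3: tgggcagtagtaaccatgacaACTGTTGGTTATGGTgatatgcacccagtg
Kcnn4: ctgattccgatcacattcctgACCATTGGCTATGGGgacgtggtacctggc
Kcnk6: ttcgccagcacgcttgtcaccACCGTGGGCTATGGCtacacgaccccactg

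Most potassium channel genes were more abundant in the DHT-treated female cord, and a smaller set also rose in males. Differences are given as log2 fold changes, DHT minus vehicle, on the deposited log2 CPM scale (CPM is the reads of a gene scaled to the total of its library, with a small prior added by the authors, so the fold change of low genes is understated), and a gene is said to have risen or fallen where the Benjamini-Hochberg adjusted p of limma over all 16703 genes was under 0.05. In females 52 of 82 members rose, against 19.8% of all genes, and 5 fell, against 27.3% of all genes, leaving 25 that did not pass the test. In males 20 rose, against 12.1% of all genes, and 2 fell, against 10.7% of all genes. Without the library labelled male DHT 3 the number of male risers among the members was 5. It was 8 without male vehicle 4 and 13 without male vehicle 2. Over all genes the number of male risers also fell, from 2023 with every library to 547, 922 and 1433 in these fits. Over 26 other settings, 35 of the 52 female risers were called each time, and those called least often were Kcnq1ot1 (10 of 26), Kcna6 (14), Kcnq5 (16), Kcnj9 and Kcnu1 (19 each). The median log2 fold change of the members was 0.50 in females and 0.20 in males, where that of all genes was −0.019 and −0.004. When each library was centred on its median over all genes, which moved the median female log2 fold change of all genes to 0.16, the female counts became 62 risers and 4 fallers among the members beside 5834 risers and 3052 fallers among all genes, where the values as deposited gave 3306 and 4565. A total of 72 members lay above 0 in females and 59 in males, of which 55 lay above 0 in both cohorts. Adding the leading axis of variation of 24 housekeeping genes as a covariate, a fit chosen after seeing the data, left 0 risers in females and 2 in males; that axis itself separated DHT from vehicle libraries in both cohorts, with −0.599 to −0.157 against −0.015 to 0.234 in females and −0.133 to 0.097 against 0.199 to 0.286 in males, and under it 0 of 16703 genes were called in females. That fit also turned the direction of 23 of the 57 changes called in females and of 0 of the 22 called in males. In whole tissue, fewer cells of a type and less RNA per cell cannot be told apart.

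**Figure D1:**
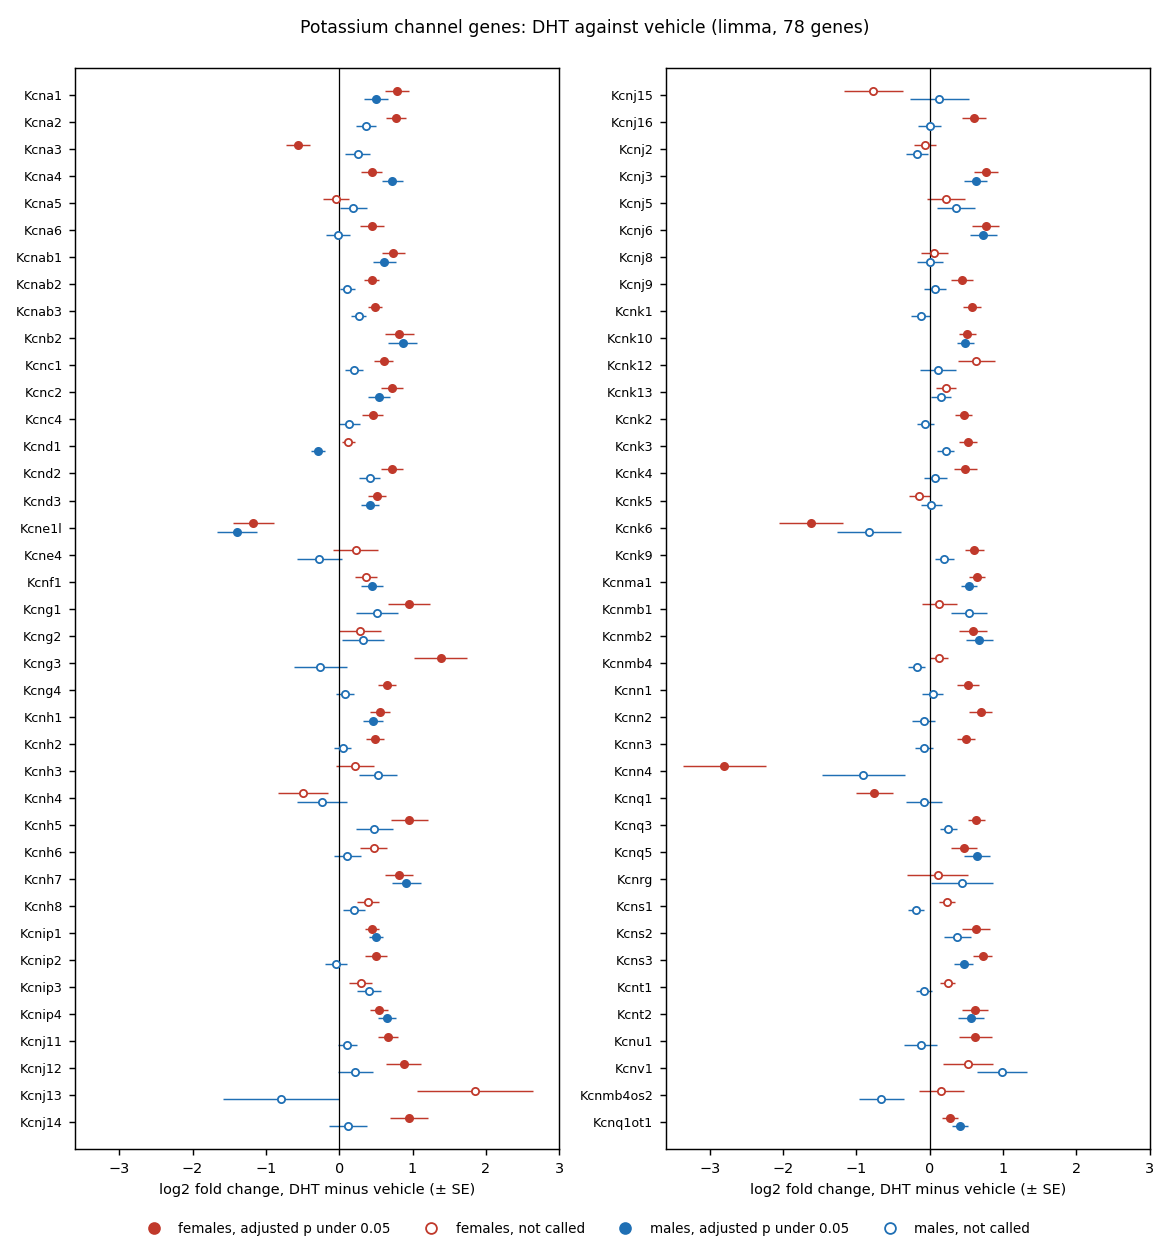
Log2 fold change, DHT minus vehicle, with its standard error for 78 potassium channel genes, in order of symbol with the 2 noncoding RNAs last, in females (red) and males (blue); filled points had a limma adjusted p under 0.05. Filled red points lie right of 0 in 48 of the genes shown and left of 0 in 5, and filled blue points right of 0 in 20 and left in 2.

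Levels after the authors' normalization were based on 29311155 to 35761972 whole-number reads per library. Of the 14 libraries, 7 per cohort, 2 stood apart. The library labelled male DHT 3 had Xist, the RNA of the inactive X chromosome, at a log2 CPM of 7.41 with 4 Y-linked genes at −2.98 to −2.65, and female vehicle 3 had Xist at 3.04 with the same Y-linked genes at 0.18 to 0.77, so the first went against its label and the second lay between the sexes. The 14 libraries also lacked 1 direction of variation over 10958 well-covered genes, in which the library labelled male DHT 3 held 62.8% and female vehicle 3 held 23.6% of the squared weight. Male calls of members that were lost without the library labelled male DHT 3 are given with both values, and without female vehicle 3 a female call was lost in 1 member, Kcnq1ot1. The columns of the table do not name an animal, so p-values measure the spread between these libraries.

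Genes that rose in both cohorts numbered 19, which is 23.2% of the members against 6.36% of all genes, and 1 member fell in both, against 5.57% of all genes. The risers were Kcna1, Kcna4, Kcnb2, Kcnc2, Kcnd3, Kcnh1, Kcnh7, Kcns3 and Kcnq5 among voltage-gated subunits, Kcnma1 and Kcnt2 among channels gated by calcium or sodium, Kcnj3, Kcnj6 and Kcnk10 among channels of the resting potential, the accessory subunits Kcnab1, Kcnip1, Kcnip4 and Kcnmb2, and the noncoding RNA Kcnq1ot1. In females 16 of these 19 had every DHT library above every vehicle library, as did 18 in males. Of all genes 19% did so in females and 18.5% in males. The 19 were chosen by the test in these same libraries, so their separation adds no support. Of the 20 male risers, 5 were still called without the library labelled male DHT 3: Kcna4, Kcnh7, Kcnip1, Kcnip4 and Kcnma1.

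Kcnma1, the pore of the large-conductance BK channel opened jointly by calcium and voltage, rose in both cohorts. Its log2 CPM was 6.50, 6.62, 6.74 and 6.38 in female vehicle 1 to 4, against 7.31, 7.35 and 6.94 in the female DHT libraries. Male vehicle 1 to 4 had 6.29, 6.28, 6.44 and 6.19, and male DHT 2, 3 and 4 had 6.83, 6.91 and 6.75. No DHT library overlapped the vehicle libraries in either cohort. The log2 fold change was 0.64 (SE 0.107, adjusted p = 0.00478) in females and 0.53 (SE 0.107, adjusted p = 0.00776) in males, and 0.49 (adjusted p = 0.0398) in males without the library labelled male DHT 3. The BK β2 subunit Kcnmb2, which makes the channel inactivate, was lower in level (mean log2 CPM 1.46) and rose by 0.59 in females and 0.68 in males, with 0.64 (adjusted p = 0.0852) in males without the library labelled male DHT 3. Its values were 1.15, 1.50, 1.46 and 1.45 in female vehicle libraries and 2.16, 2.25 and 1.53 in female DHT libraries, so female DHT 3 lay only just above the highest vehicle library. In males they were 1.14, 0.64, 1.18 and 0.96 with vehicle and 1.62, 1.72 and 1.62 with DHT. The β4 subunit Kcnmb4 and the smooth muscle subunit Kcnmb1 did not pass the test in either cohort.

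KChIP subunits, the calcium-binding partners of Kv4 (Kcnd) channels, moved with part of the Kv4 family. Kcnip1 was at 5.02, 5.27, 5.13 and 4.89 in female vehicle libraries against 5.65, 5.57 and 5.35 with DHT, and at 4.96, 4.81, 4.84 and 4.66 in male vehicle libraries against 5.30, 5.31 and 5.36 with DHT. The groups did not overlap in either cohort, and the log2 fold changes were 0.45 (SE 0.098, adjusted p = 0.00527) in females and 0.51 (SE 0.098, adjusted p = 0.00686) in males. Kcnip4 read 4.90, 5.02, 5.26 and 4.79 in female vehicle libraries and 5.70, 5.64 and 5.26 in female DHT libraries. Female DHT 3 and female vehicle 3 thus stood at about the same level. In males Kcnip4 was at 4.67, 4.49, 4.58 and 4.50 with vehicle and at 5.13, 5.39 and 5.14 with DHT, with no overlap. It rose by 0.54 in females and by 0.66 in males (SE 0.124, adjusted p = 0.00648), and by 0.57 (adjusted p = 0.0345) without the library labelled male DHT 3. Of the Kv4 pores, Kcnd3 rose in both cohorts (0.52 and 0.42, the latter 0.34 with an adjusted p of 0.138 without the library labelled male DHT 3), Kcnd2 rose in females (0.72) with a male value of 0.42 (adjusted p = 0.0586), and Kcnd1 fell in males. Kcnip2 rose in females alone by the test (0.50), and Kcnip3 had 0.29 (adjusted p = 0.151) and 0.41 (adjusted p = 0.0832). The transmembrane Kv4 partners Dpp10 and Dpp6 had 0.76 (adjusted p = 0.00478) and 0.52 (adjusted p = 0.00478) in females, and 0.63 (adjusted p = 0.0123) and 0.28 (adjusted p = 0.0636) in males, where Dpp10 had 0.52 (adjusted p = 0.0635) without the library labelled male DHT 3.

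Kv1 subunits did not move as a block. Kcna1, a delayed rectifier of the juxtaparanode, had values of 7.08, 7.40, 7.42 and 6.98 in female vehicle libraries and of 8.16, 8.08 and 7.79 in female DHT libraries. The female groups were apart, and the log2 fold change was 0.79 (SE 0.165, adjusted p = 0.00484). In males the values were 6.80, 7.03, 7.34 and 6.70 with vehicle and 7.52, 7.64 and 7.24 with DHT, where DHT 4 lay below vehicle 3. The male log2 fold change was 0.50 (SE 0.165, adjusted p = 0.0461), and 0.41 (adjusted p = 0.172) without the library labelled male DHT 3. Kcna2, its usual partner in the axon, rose by 0.78 in females and had 0.37 (adjusted p = 0.0645) in males. Kcna4, which inactivates rapidly, was 2.76, 2.85, 3.0 and 2.55 in female vehicle libraries and 3.42, 3.32 and 2.96 in female DHT libraries, so that female DHT 3 lay inside the vehicle range. In males it was 2.19, 2.27, 2.56 and 2.20 against 3.04, 3.10 and 2.94, with no overlap, and the male log2 fold change of 0.72 (SE 0.141, adjusted p = 0.00703) was 0.68 (adjusted p = 0.0352) without the library labelled male DHT 3. Kcna6 rose by 0.44 in females (adjusted p = 0.0417), a call held in 14 of 26 other settings with adjusted p of up to 0.174. Kcna5, a Kv1 subunit also found in heart and vessels, did not pass the test in either cohort. Kcna3, the Kv1 channel of T cells and microglia, fell in females and is described with the immune channels, and its gene lies 63076 bases from Kcna2 on chromosome 3 (GRCm38, 107036169 to 107038070 for Kcna3 and 107101146 to 107115005 for Kcna2, both on the plus strand).

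Every gene of the axonal and nodal list, drawn up with earlier results of these data known, rose in females. Over all genes 19.8% rose in females and 12.1% in males. Of the 27 members with the highest mean log2 CPM, 92.6% rose in females, so the rise was not particular to this list. Of the 11 members listed as channels of the axon and node (among them Kcna1, Kcna2, Kcnab1, Kcnab2, Kcnk1, Kcnk2, Kcnk4 and Kcnq3), 11 rose in females with a median log2 fold change of 0.62, and 2, Kcna1 and Kcnab1, rose in males with a median of 0.26, a count of 0 without the library labelled male DHT 3. Their mean log2 CPM per library was 6.40, 6.57, 6.67 and 6.23 in female vehicle 1 to 4 and 7.21, 7.18 and 6.87 in female DHT 1 to 3. Male values were 6.41, 6.53, 6.61 and 6.36 with vehicle and 6.63, 6.75 and 6.74 with DHT. The male groups did not overlap, but male DHT 2 lay only just above male vehicle 3. Kcnab1, the β1 subunit that confers fast inactivation on Kv1 channels, was at 6.14, 6.36, 6.57 and 6.08 in female vehicle libraries and at 7.27, 7.06 and 6.76 in female DHT libraries. Its male values were 5.81, 6.11, 6.18 and 5.66 with vehicle and 6.46, 6.72 and 6.50 with DHT. It rose by 0.74 (SE 0.157, adjusted p = 0.00496) in females and by 0.62 (SE 0.157, adjusted p = 0.0175) in males, and had 0.54 (adjusted p = 0.0793) in males without the library labelled male DHT 3. The remaining Kv β subunit, Kcnab3, rose by 0.49 in females. Kcnq3, a Kv7 subunit of the M-current, rose by 0.64 in females and did not pass the test in males. Kcnq5, of the same Kv7 family, rose by 0.47 in females and 0.64 in males, with 0.53 (adjusted p = 0.112) in males without the library labelled male DHT 3. Kcnab2 and Kcna2 were among the members with the highest vehicle levels per kilobase of exon, at a log2 CPM per kilobase of 5.90 and 5.09.

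**Figure D2:**
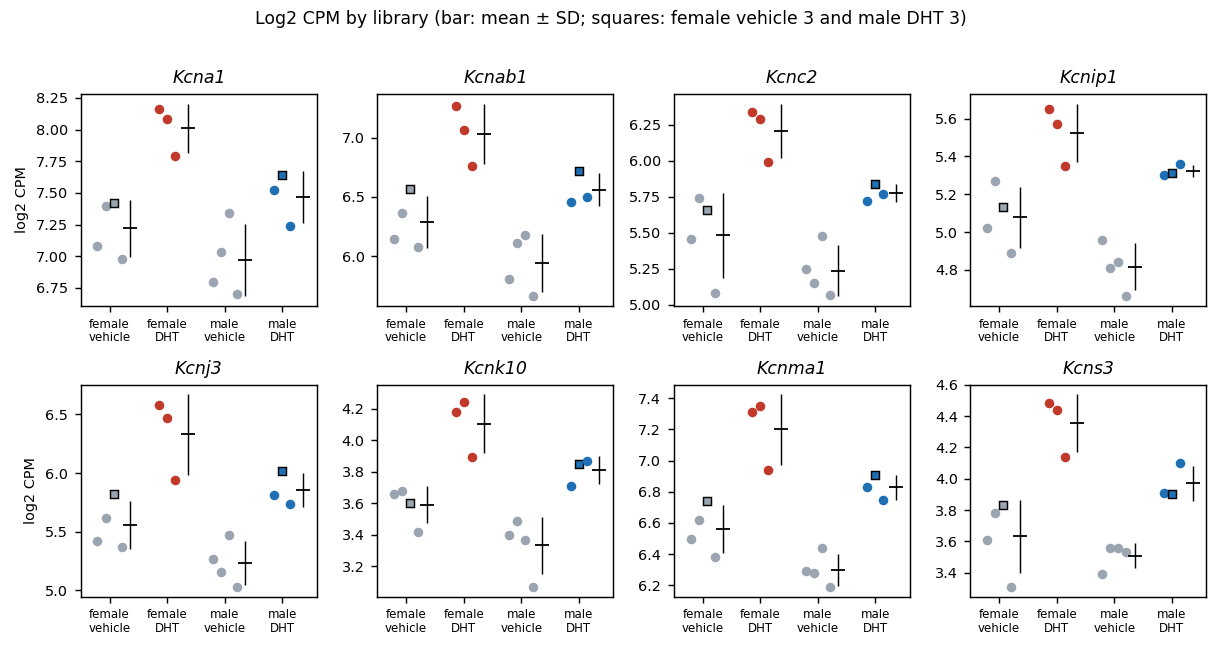
Log2 CPM in each of the 14 libraries for the 8 members with the smallest female p among those that rose in both cohorts; points are libraries, bars give the group mean ± SD (n = 4 vehicle, n = 3 DHT), and squares mark female vehicle 3 and the library labelled male DHT 3. In females DHT 3 is the lowest of the DHT points in each panel, and in males Kcna1 is the panel in which a DHT point lies below the highest vehicle point.

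Fast-spiking and delayed-rectifier channels were among the risers. Of the Kv3 (Kcnc) genes, whose rapid closing allows high firing rates, Kcnc1 rose by 0.61 and Kcnc4 by 0.46 in females, and Kcnc2 rose in both cohorts. Kcnc2 had values of 5.46, 5.74, 5.66 and 5.08 in female vehicle libraries, 6.34, 6.29 and 5.99 in female DHT libraries, 5.25, 5.15, 5.48 and 5.07 in male vehicle libraries and 5.72, 5.84 and 5.77 in male DHT libraries. The groups were apart in both cohorts, and the log2 fold changes were 0.72 (SE 0.148, adjusted p = 0.00478) in females and 0.54 (SE 0.148, adjusted p = 0.0231) in males. Without the library labelled male DHT 3 the male value was 0.51 (adjusted p = 0.0865), and the male call held in 20 of 26 other settings. The Kv2 pore Kcnb2 rose by 0.82 in females. It also rose in males, from 3.32, 3.23, 3.51 and 2.84 with vehicle to 3.95, 4.35 and 3.96 with DHT (log2 fold change 0.87, SE 0.198, adjusted p = 0.012), and in females it went from 3.70, 3.85, 4.14 and 3.33 to 4.71, 4.69 and 4.32. Without the library labelled male DHT 3 its male value was 0.73 (adjusted p = 0.0617). The silent subunits, which form channels only together with Kv2, included Kcns3, whose values were 3.61, 3.78, 3.83 and 3.31 in female vehicle libraries and 4.48, 4.44 and 4.14 in female DHT libraries. In males Kcns3 stood at 3.39, 3.56, 3.56 and 3.53 with vehicle and at 3.91, 3.90 and 4.10 with DHT. It rose by 0.72 (adjusted p = 0.00478) and 0.46 (adjusted p = 0.0222), with no overlap in either cohort, and had 0.50 (adjusted p = 0.0597) in males without the library labelled male DHT 3. A second Kcns gene, Kcns2, rose by 0.63 in females. Of the 4 Kcng silent subunits 3 rose in females, of which Kcng3 had the largest log2 fold change of any riser (1.38) at a very low level (mean log2 CPM −1.68). Kcng4, the best expressed of them, rose by 0.65. Kcng1 went from 1.15, 1.90, 2.01 and 1.19 to 2.57, 2.69 and 2.28 in females (log2 fold change 0.95, adjusted p = 0.0168), and its male libraries overlapped, with 1.34, 2.29, 1.79 and 1.12 against 2.03, 2.04 and 2.37. None of the 4 passed the test in males. The silent subunit Kcnf1 was the 20th male riser (0.44, adjusted p = 0.0478), with 0.37 (adjusted p = 0.0582) in females. Its male call held in 11 of 26 other settings, and it had 0.52 (adjusted p = 0.0777) without the library labelled male DHT 3 and 0.44 (adjusted p = 0.0584) without female vehicle 3.

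The Kcnh family holds the ether-a-go-go (Eag), Erg and Elk channels, and 4 of its 8 genes rose in females and 2 in males. Kcnh7, the neuronal Erg3 channel, had the largest rise of any called member in males. Its values were 3.93, 3.76, 4.03 and 3.6 in male vehicle libraries and 4.66, 4.96 and 4.63 in male DHT libraries, with no overlap and a log2 fold change of 0.92 (SE 0.191, adjusted p = 0.00853), or 0.81 (adjusted p = 0.0458) without the library labelled male DHT 3. In females it went from 4.45, 4.51, 4.72 and 3.95 to 5.41, 5.45 and 4.82, a log2 fold change of 0.82. Kcnh5 (Eag2) rose in females from 2.35, 3.11, 3.0 and 2.43 to 3.94, 3.89 and 3.21 (log2 fold change 0.96, adjusted p = 0.00944). Its male values of 2.56, 2.44, 2.93 and 2.12 with vehicle and 2.81, 3.30 and 2.86 with DHT overlapped. Kcnh1 (Eag1) rose by 0.56 in females and 0.46 in males, or 0.42 (adjusted p = 0.109) without the library labelled male DHT 3, and Kcnh2 (Erg1, also the cardiac channel) rose by 0.49 in females, with 0.05 in males. Kcnh3, Kcnh4, Kcnh6 and Kcnh8 did not pass the test in either cohort.

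Among the inward rectifiers, 7 of 12 Kcnj genes rose in females and 2 in males. The 2 were Kcnj3 and Kcnj6, the GIRK1 and GIRK2 subunits that G-protein-coupled receptors open to quiet neurons. Kcnj3 was at 5.42, 5.62, 5.82 and 5.37 in female vehicle libraries and at 6.58, 6.47 and 5.94 in female DHT libraries. In males it was at 5.27, 5.16, 5.47 and 5.03 with vehicle and at 5.81, 6.02 and 5.74 with DHT. The groups were apart in both cohorts, and the log2 fold changes were 0.77 (SE 0.159, adjusted p = 0.00479) and 0.63 (SE 0.159, adjusted p = 0.0177). Kcnj6 went from 2.78, 3.38, 3.12 and 2.95 to 3.86, 4.16 and 3.43 in females and from 2.53, 2.61, 2.89 and 2.40 to 3.17, 3.47 and 3.38 in males, again with no overlap. Its log2 fold changes were 0.76 in females and 0.73 in males (SE 0.183, adjusted p = 0.0168). Without the library labelled male DHT 3 the male values were 0.55 (adjusted p = 0.0797) for Kcnj3 and 0.67 (adjusted p = 0.0726) for Kcnj6. A further GIRK subunit, Kcnj9, rose by 0.44 in females alone by the test. Of the classical strong rectifiers, Kcnj12 (Kir2.2) rose in females from 2.08, 2.49, 2.76 and 2.03 to 3.39, 3.31 and 2.96 (0.88, adjusted p = 0.0101). Kcnj14 (Kir2.4) read 2.60, 2.69, 3.56 and 2.22 in female vehicle libraries against 3.82, 3.88 and 3.47 with DHT, so that female vehicle 3 lay above female DHT 3, and it rose by 0.95 (adjusted p = 0.0108), or by 1.22 (adjusted p = 0.00445) without female vehicle 3. In males the groups of both overlapped, with 2.27, 2.64, 2.36 and 2.48 against 2.14, 2.68 and 3.17 for Kcnj12 and 3.11, 3.59, 3.13 and 2.97 against 3.13, 3.31 and 3.54 for Kcnj14. Kcnj11, the pore of the ATP-sensitive channel, rose by 0.66 in females beside its regulatory subunit Abcc8 (0.57, adjusted p = 0.00527). The glial subunit Kcnj16, which pairs with Kir4.1 in astrocytes, rose by 0.61 in females. Kcnj13 had 1.86 in females and −0.80 in males at a mean log2 CPM of −1.22, with standard errors of 0.79, and passed the test in neither.

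Background K2P channels gave 6 risers and 1 faller among 10 Kcnk genes in females and 1 riser in males. Kcnk10, the stretch- and lipid-sensitive TREK-2, was that gene. It was at 3.66, 3.68, 3.6 and 3.42 in female vehicle libraries and at 4.18, 4.24 and 3.89 with DHT, and at 3.40, 3.49, 3.37 and 3.07 in male vehicle libraries and 3.71, 3.85 and 3.87 with DHT, with no overlap in either cohort. It rose by 0.51 (SE 0.116, adjusted p = 0.00563) in females and by 0.48 (SE 0.116, adjusted p = 0.0145) in males, and had 0.46 (adjusted p = 0.0603) in males without the library labelled male DHT 3. In females Kcnk2 (TREK-1) and Kcnk4 (TRAAK), both reported at nodes of Ranvier, rose by 0.46 and 0.48, the acid-sensitive Kcnk3 and Kcnk9 by 0.53 and 0.60, and Kcnk1 (TWIK-1) by 0.58. Small-conductance calcium-activated channels Kcnn1, Kcnn2 and Kcnn3, which shape the afterhyperpolarization of neurons, rose in females by 0.53, 0.69 and 0.50, and had 0.04, −0.08 and −0.08 in males. Kcnu1, a relative of the BK channel known from sperm, rose by 0.62 in females at a low level (mean log2 CPM 1.23). The sodium-activated Kcnt2 rose in both cohorts (0.62 and 0.56, the latter 0.40 with an adjusted p of 0.175 without the library labelled male DHT 3), and its relative Kcnt1, among the more abundant members, had 0.24 in females (adjusted p = 0.0735) and −0.08 in males.

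The members that fell were few, and 3 of the 5 fallers in females belonged to the channels of immune cells. Of 7 measured genes listed as immune and microglial channels, 3 fell and 1 rose in females, and 0 passed the test in males. Over all genes 27.3% fell and 19.8% rose in females. The list is short and was drawn up with earlier results of these data known. Over all members, leaving out female DHT 1 gave 2 fallers in females, and leaving out either female DHT 2 or female vehicle 4 gave 3. Over all genes these fits gave 2759, 2848 and 3748 fallers in females, where every library together gave 4565. Kcnn4, the intermediate-conductance calcium-activated channel of lymphocytes, macrophages and microglia, had the largest change of all members. Its log2 CPM was 3.29, 3.15, 2.56 and 3.50 in female vehicle libraries and −1.31, 0.21 and 2.08 in female DHT libraries. All 3 DHT libraries lay below the vehicle libraries, and they spread far more widely, with DHT 3 nearest to the vehicle range. The log2 fold change was −2.80 (SE 0.565, adjusted p = 0.00478), about 6.97-fold lower, and leaving out female DHT 1 made it −1.98 and leaving out DHT 3 made it −3.68. In males Kcnn4 was at 3.26, 3.55, 3.21 and 3.64 with vehicle and 2.88, 2.03 and 2.61 with DHT, where every DHT library was again below every vehicle library, but the log2 fold change of −0.91 (SE 0.565) did not pass the test (adjusted p = 0.261) under a spread shared with the female libraries. With the male cohort fitted alone Kcnn4 passed, with an adjusted p of 0.011, the only one of 26 other settings in which it did in males. Kcnk6 (TWIK-2), which in mouse macrophages lets potassium out during inflammasome activation, was at 4.84, 4.18, 4.41 and 5.06 in female vehicle libraries and at 1.79, 2.88 and 4.33 with DHT. Female DHT 3 lay inside the vehicle range, and the log2 fold change was −1.62 (SE 0.44, adjusted p = 0.0109). Leaving out the same libraries in turn made it −1.02 (adjusted p = 0.0515) and −2.28, and with each cohort fitted alone its adjusted p was 0.0605. In males it was at 5.12, 4.93, 4.93 and 5.39 against 4.68, 4.0 and 4.11, with a log2 fold change of −0.83 (adjusted p = 0.189) and no overlap. Kcnk6 passed the test in males in 3 of 26 other settings, with an adjusted p as low as 0.00893.

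Kcna3, which holds the T cell membrane potential that calcium entry needs, was at 2.89, 2.66, 2.50 and 3.04 in female vehicle libraries and at 1.96, 2.14 and 2.53 in female DHT libraries, where DHT 3 lay just above vehicle 3. It fell by 0.56 on the log2 scale in females (SE 0.17, adjusted p = 0.0176), a call lost without female DHT 1, female DHT 2 or female vehicle 4 (adjusted p of up to 0.176 over 26 other settings). Its male values of 2.68, 2.48, 2.43 and 2.15 with vehicle and 2.82, 2.65 and 2.58 with DHT overlapped, with a log2 fold change of 0.25 (adjusted p = 0.303). The microglial THIK-1 channel Kcnk13, which sets the resting potential of surveying microglia, did not move with these. It was at 3.87, 4.21, 4.21 and 3.96 in female vehicle libraries and 4.40, 4.25 and 4.19 with DHT, and at 3.86, 4.04, 4.10 and 3.62 in male vehicle libraries and 3.83, 4.30 and 4.03 with DHT, and passed the test in neither cohort. Kcnj2 (Kir2.1) had 3.66, 3.87, 4.14 and 3.92 against 3.93, 3.74 and 3.83 in females, and 4.10, 3.71, 4.08 and 3.86 against 3.49, 4.07 and 3.73 in males. Kcnk5 had 2.23, 2.34, 2.16 and 2.06 against 2.12, 1.92 and 2.13 in females, and 1.85, 2.02, 1.89 and 2.25 against 2.17, 2.16 and 1.75 in males. Both overlapped in both cohorts. The riser of the list was Kcnab2, the Kv β2 subunit, which is also a neuronal gene and one of the axonal list, with 8.31, 8.49, 8.48 and 8.07 in female vehicle libraries against 8.87, 8.82 and 8.65 with DHT (log2 fold change 0.44, adjusted p = 0.0055). In males it was 8.34, 8.52, 8.51 and 8.32 against 8.49, 8.52 and 8.59, with overlap.

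Kcne1l, an X-linked accessory subunit of the Kcne family that inhibits Kv7 channels in expression systems, was the member that fell in both cohorts. It was at 4.22, 3.54, 4.39 and 4.76 in female vehicle libraries and at 2.74, 2.92 and 3.51 in female DHT libraries, with DHT 3 just below vehicle 2. In males it was at 5.04, 4.85, 4.63 and 5.41 with vehicle and at 3.48, 3.92 and 3.36 with DHT, with no overlap. The log2 fold changes were −1.17 (SE 0.278, adjusted p = 0.00648) in females and −1.39 (SE 0.278, adjusted p = 0.00759) in males, and the male value was −1.56 (adjusted p = 0.0266) without the library labelled male DHT 3. Kcnq1, the Kv7 channel of heart and epithelia, fell by 0.76 in females at a low level (0.35, 0.25, −0.50 and 0.33 against −0.87, −0.97 and −0.10, adjusted p = 0.0256), with overlap through female vehicle 3, and was called in 17 of 25 other settings. Kcnd1 (Kv4.1) fell in males by 0.29 (SE 0.094, adjusted p = 0.0429), from 4.54, 4.49, 4.46 and 4.59 to 4.04, 4.25 and 4.39, and had −0.30 (adjusted p = 0.101) without the library labelled male DHT 3. In females Kcnd1 was at 4.16, 4.11, 4.41 and 4.16 against 4.41, 4.23 and 4.36 and did not pass the test.

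**Figure D3:**
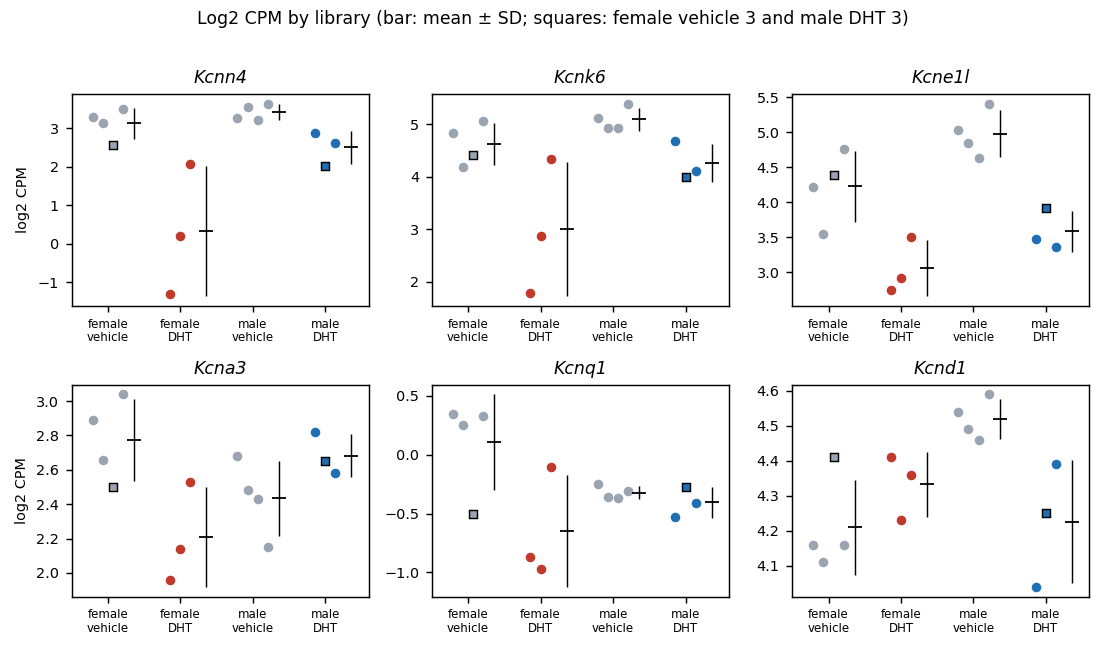
Log2 CPM in each of the 14 libraries for the 6 members that fell in at least 1 cohort; points are libraries, bars give the group mean ± SD (n = 4 vehicle, n = 3 DHT), and squares mark female vehicle 3 and the library labelled male DHT 3; each panel has its own vertical scale. The Kcnn4 and Kcnk6 panels show the wide spread of the female DHT libraries, from −1.31 to 2.08 and from 1.79 to 4.33.

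The noncoding RNA Kcnq1ot1, an antisense transcript of the imprinted Kcnq1 locus, rose by 0.27 in females (adjusted p = 0.0469) and by 0.41 in males (adjusted p = 0.0175), in the direction opposite to Kcnq1 in females. In females the test was passed under 10 of 26 other settings, and the male value was 0.37 (adjusted p = 0.0765) without the library labelled male DHT 3. Kcnmb4os2 did not pass the test in either cohort. Exons of 29 of the 82 members overlap those of another gene. The paper names a directional library kit and a check of library orientation. The sources do not state whether reads were counted by strand, so values of an antisense gene and its partner are uncertain.

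Pore-forming and accessory genes were also counted apart. Members not named elsewhere (Kcne4, Kcng2, Kcnj5, Kcnj8, Kcnj15, Kcnk12, Kcnrg, Kcns1 and Kcnv1) did not pass the test in either cohort. In females 44 of 67 pore-forming genes rose and 4 fell, and 7 of 13 accessory genes rose and 1 fell, with medians of 0.52 and 0.44. In males 15 of 67 rose and 1 fell, and 4 of 13 rose and 1 fell, with medians of 0.20 and 0.41. The counts differed with the level of the genes. Of the 27 members with the highest mean log2 CPM (5.03 to 9.06) 92.6% rose in females, where 28.3% of all genes in that range did, and of the 28 with the lowest (−1.68 to 2.56) 21.4% rose against 9.64% of all genes in that range. In males the shares were 33.3% against 19.98% at high level and 7.14% against 2.70% at low level. Of the members, 9 had a mean log2 CPM below 0 and 7 had fewer than 10 reads in at least 1 library, so a change of theirs would be hard to detect at this depth.

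Proteins that bind, cluster or traffic potassium channels also rose more often than they fell. Of 28 measured partner genes, listed with earlier results of these data known, 21 rose and 1 fell in females. Over all genes 19.8% rose and 27.3% fell in females. In males 10 partners rose and 0 fell, against 12.1% and 10.7% of all genes. The median log2 fold changes of the partners were 0.52 in females and 0.27 in males. Without the library labelled male DHT 3 the number that rose in males was 2. The scaffold of the juxtaparanode Cntnap2 (Caspr2) rose by 0.60 (SE 0.11, adjusted p = 0.00478) in females and by 0.50 (SE 0.11, adjusted p = 0.0104) in males, and so did Epb41l3, its link to the cytoskeleton (0.60 and 0.49). Without that library their male values were 0.45 (adjusted p = 0.0531) and 0.43 (adjusted p = 0.0873). The Kv1-associated Lgi2, Adam22 and Adam23 rose in both cohorts, by 0.63, 0.66 and 0.65 in females, as did the scaffolds Dlg1 and Dlg2. Without that library the male calls of Lgi2, Adam22, Adam23 and Dlg2 were lost (adjusted p = 0.116, 0.138, 0.0933 and 0.123). The male call of Dlg1 held (adjusted p = 0.0396). Lgi3 rose by 0.49 in females and had −0.03 in males. The BK subunit Lrrc55 rose by 0.54 in males (adjusted p = 0.0507 without that library). Lgi4, made by the glia of peripheral nerves in mouse, was the partner that fell, by 0.50 in females (adjusted p = 0.0468, and 0.0517 without that library).

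Markers of cell types moved beside these groups. Of 10 neuron markers, 9 rose in females and 4 in males, with medians of 0.51 and 0.33, where the members had 0.50 and 0.20, and 2 of the 10 rose in males without the library labelled male DHT 3. The mean log2 CPM of the neuron markers was 8.44 to 8.86 in the 4 female vehicle libraries and 8.92 to 9.24 in the 3 DHT libraries, and 8.37 to 8.57 and 8.84 to 8.91 in males. Of 10 myeloid markers, 10 fell in females and 2 in males, with medians of −2.09 and −1.07, and their mean level ran from 6.63 to 7.59 in female vehicle libraries and 3.86, 4.87 and 6.43 in female DHT 1, 2 and 3. In males it ran from 7.38 to 7.77 with vehicle and from 6.22 to 6.94 with DHT. Of 9 measured T cell markers, 9 fell in females and 0 in males. The female DHT libraries thus ranked alike for the myeloid markers, for Kcnn4 and for Kcnk6, lowest in DHT 1 and highest in DHT 3. Kcna3, Kcne1l and the T cell markers (−2.35, −0.27 and 2.19) had the same order, so it was not particular to these. Kcnq1, the remaining female faller, was lowest in DHT 2. The same female DHT 3 was the lowest of the DHT libraries for each of the 52 genes that rose in females, with a median of 0.35 above the vehicle mean, against 0.73 and 0.74 for DHT 1 and 2. In males the library labelled DHT 3 was the highest of the DHT libraries for 15 of the 20 risers. Peripheral nerve and ganglion markers had their highest mean levels in male DHT 4 (3.66), female DHT 3 (3.51) and female vehicle 3 (3.41), and skeletal muscle markers in male DHT 2 (2.39) and male DHT 4 (1.04). The part of these markers in the results was not tested.

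**Figure D4:**
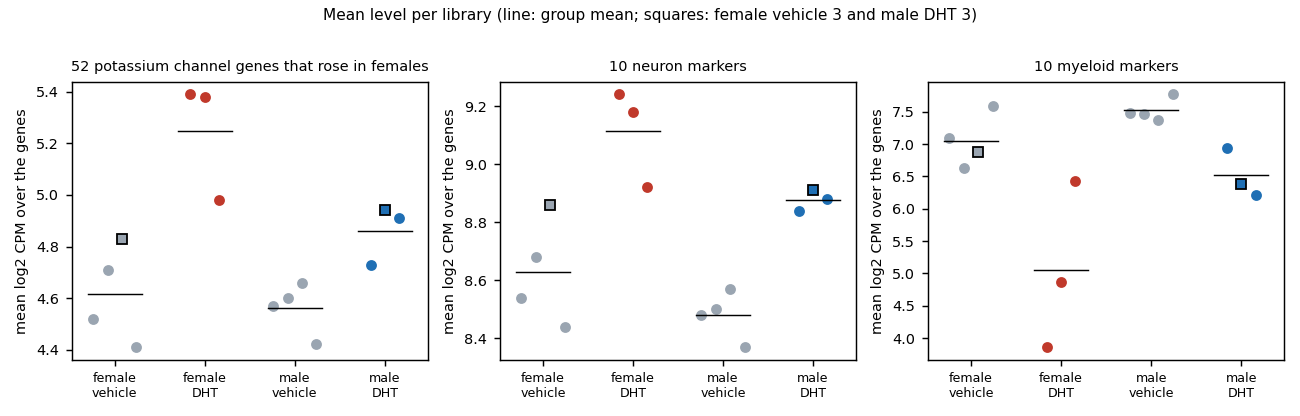
Mean log2 CPM in each of the 14 libraries over the 52 potassium channel genes that rose in females (left), 10 neuron markers (middle) and 10 myeloid markers (right); points are libraries, lines are group means, squares mark female vehicle 3 and the library labelled male DHT 3, and the left panel shows the genes in the libraries that chose them. Female DHT 3 is the DHT library nearest to the vehicle libraries in all 3 panels, at 4.98, 8.92 and 6.43.

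The response was numerically larger in females for most members, but a difference between the cohorts was not established for any. The female log2 fold change exceeded the male one in 58 of 82 members. It did so in 44 of the 52 female risers and in 11 of the 20 male risers, and since each set was chosen by the test in its own cohort, neither count bears on a difference between the cohorts. Of the female risers 33 did not pass the test in males, with a median male log2 fold change of 0.11. Rises over all genes were also more numerous in females (3306) than in males (2023). The share of all genes with a larger female value was not counted, so a larger female response is not shown to be particular to the members. The interaction of cohort and DHT passed the test in 0 of 82 members, against 1.86% of all genes, while 24 members had an unadjusted p under 0.05, as by limma's voom, where 28.0% of all genes did. Among the smallest adjusted p were those of Kcnk1 (0.0552), Kcnn2 (0.0715) and Kcna3 (0.0752). Without female DHT 3 the interaction was called in 17 members and without female vehicle 3 in 6. The share of all genes called in these fits was not counted, so neither count is shown to be particular to the members.

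Promoters were searched for letters that androgen receptors bind, since DHT acts through that receptor. RefSeq promoters (GRCm38.p6, 250 bases before to 50 after the start) were found for 59 of the 82 members, 82 promoters in all. The hexamer AGAACA, the unit of androgen response elements, on either strand, was present in 13 of the 82 member promoters, and in 19.0% of 32851 promoters of the genome. The full palindrome, AGAACA and TGTTCT with 3 bases between them, was present in 0 member promoters and in 3 promoters of the genome. By gene, 5 of 17 matched members that rose in both cohorts held the hexamer (Kcnab1, Kcnc2, Kcnip4, Kcnj6 and Kcnk10), as did 4 of 42 other matched members. A gene counted where any of its promoters held the hexamer, so genes with more promoters counted more easily. The split follows the calls in these same data, and no share by gene was taken over the genome. A link between the hexamer and the rise was not tested. A match is a description of letters and not of binding. A promoter of Kcnip4 (chr5:48599633-48599932, minus strand) is printed because it held 3 copies, shown in capitals, in a gene that rose in both cohorts. It lies inside the gene, which spans 48389502 to 49524907 on the minus strand. It thus belongs to an internal start and not to the first start of the gene.
Kcnip4: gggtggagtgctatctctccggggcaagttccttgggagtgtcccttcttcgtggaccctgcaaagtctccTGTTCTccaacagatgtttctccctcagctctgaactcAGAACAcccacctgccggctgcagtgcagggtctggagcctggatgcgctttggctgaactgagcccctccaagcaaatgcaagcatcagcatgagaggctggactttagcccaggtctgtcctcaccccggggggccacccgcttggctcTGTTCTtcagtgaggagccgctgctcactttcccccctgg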

How the data were processed

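RNA-seq of whole spinal cord was carried out in 14 libraries of mice with EAE. The Methods and the processing notes of the submitters name FastQC for read quality, fastp for trimming, DRAGEN for mapping and counting on mm10 with GENCODE genes, and Picard for library metrics. The authors then normalized on housekeeping genes with RUVSeq and with edgeR, and removed genes of low expression. The authors deposited log2 CPM values for 16703 genes; as this step joins both cohorts, it can move the level of all genes in a library. Columns of the authors' own comparisons (fold changes, mean levels, test statistics, p-values and adjusted p-values for 6 comparisons) were not used. The deposited values resolve into whole numbers in 100% of cases within 0.05, and 0 reads correspond to a CPM of 0.0631. These numbers already hold the normalization and are not raw counts.

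A linear model with moderated variances and a mean-variance trend (limma 3.58.1 under R 4.3.3) was fitted to the log2 values as deposited, with all 4 groups together and one shared spread, and p-values were adjusted by Benjamini-Hochberg over all genes at 0.05. The columns name a group and a number but no sample. Values in every library are given for the 8 members with the smallest female p among those that rose in both cohorts, the 6 largest rises and falls per cohort among called members whose mean log2 CPM was 0 or more, and the immune and microglial channels; Kcnq1, the remaining faller, was added after its values were seen. Partners are named where called in both cohorts or among the 4 smallest p of a cohort; Dpp6, Abcc8, Lrrc55 and Lgi4 were added after their values were seen. The members, gene lists and alternatives were chosen with earlier results of these data known. Astrocyte, oligodendrocyte, and endothelial and mural markers (10 genes each) gave 4, 5 and 2 rises and 2, 0 and 3 falls in females, and 0, 3 and 1 rises and 2, 0 and 1 falls in males. Of 9 glial and vascular channels 5 rose in females and 3 in males, and of 24 housekeeping genes 3 rose and 12 fell in females against 4 and 2 in males. The peripheral nerve list had 0 rises and 1 fall in females and 0 of either in males, and the muscle list 1 of each in females and 1 rise in males. Alternatives covered scaling, a minimum mean, pseudocounts, the variance trend, weights, each cohort alone, voom, covariates and each library left out. Scripts were tested on simulated data. Gene models are those of GENCODE M21 on GRCm38, the build of mm10. Python 3.11.15, pandas 2.3.3 and matplotlib 3.10.9 handled tables and figures. Protein sequences were not used here. Some genes that the rules select are not reported here.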

Additional observations from a re-analysis of the deposited data

Results flagged for a closer look

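Of 54 groups of 4 vehicle libraries looked at (27 members with values in every library, in 2 cohorts), 1 had a library far from the other 3. Kcnmb2 stood at a log2 CPM of 1.15 in female vehicle 1, where the nearest of the other 3 was at 1.45, a gap of 0.845 of the group's range and past Dixon's limit for 4 values. Chance alone flags about 1 in 20 such groups.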

How the results depend on the processing

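Counts of members depended on the setting as follows. Without 1 library the number of female risers ranged from 35 to 55 and of fallers from 2 to 6. That of male risers ranged from 5 to 23 and of male fallers from 1 to 3. Members with a called interaction numbered 0 to 17. Over all genes, female risers in these fits ranged from 1626 to 3840 and male risers from 547 to 2387. Female fallers numbered 3 under quantile normalization and 2 with each cohort fitted alone. Male risers numbered 5 without both female vehicle 3 and the library labelled male DHT 3, and 8 with a covariate for the missing direction. Male fallers numbered 1 under median centring, quantile normalization, housekeeping centring, without both of those libraries and with the missing direction, and 4 with each cohort alone. The interaction was called in 1 member under quantile normalization or with a minimum mean log2 CPM of 1. It was called in 2 under housekeeping centring and in 14 with array weights. Over all genes, called interactions were not counted under these settings or without 1 library. With the housekeeping axis as a covariate, chosen after seeing the data, there were 0 risers and 0 fallers in females, and 2 risers (Kcnip4 and Kcnma1) and 0 fallers in males. Under it the female log2 fold changes turned, among others, to 0.082 for Kcna3, −0.14 for Kcna4, −0.163 for Kcna6, −0.023 for Kcnb2, −0.244 for Kcnc4, −0.046 for Kcnd2, −0.071 for Kcnd3, −0.001 for Kcnf1, −0.006 for Kcnh1, −0.172 for Kcnh5, −0.118 for Kcnh7, −0.056 for Kcnip3, −0.07 for Kcnip4, −0.021 for Kcnj3, −0.272 for Kcnj9, 0.708 for Kcnk6, −0.051 for Kcnmb2, 0.164 for Kcnn4, 0.095 for Kcnq1, −0.03 for Kcnq1ot1, −0.201 for Kcnq5, −0.211 for Kcns2, −0.089 for Kcnt2 and −0.287 for Kcnu1. The male ones turned to −0.179 for Kcnh2, 0.35 for Kcnk6, −0.158 for Kcnn1 and 0.594 for Kcnn4. Outside this covariate no called change turned. Male values that were not called turned without male DHT 4, and over the libraries left out in turn they ranged from −0.041 to 0.094 for Kcnh2, from −0.169 to 0.206 for Kcnn1 and from −0.207 to 0.009 for Kcnn3. With the missing direction Kcnn2 turned to 0.022. The cause of these differences was not tested. Over the other 26 settings, the calls of Kcna4, Kcnh7, Kcnip1, Kcnip4 and Kcnma1 (risers) and of Kcne1l (faller) held in males each time. Over the same settings and all called members, female calls held 1381 times and were lost 99 times, and male calls held 471 times and were lost 101 times. No paired analysis was possible because the title of every library carries the replicate number 1 and the numbers of the columns name no sample. Depth limits the members with few reads, and 3 DHT libraries per cohort limit all comparisons.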
